A study of Mus musculus with 30 samples.

Results

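The genes described here are 10 members of the insulin-like growth factor 1 (IGF1) pathway: the ligand gene Igf1, the receptor gene Igf1r, the docking adaptors Irs1 and Irs2, the IGF binding protein genes Igfbp3, Igfbp4, Igfbp5, Igfbp6 and Igfbp7, and Igfals, which encodes the acid-labile subunit of circulating IGF complexes. They were picked by gene symbol from the 36103 genes of the count table, and all 10 were found. The table holds read counts per gene for 30 polyA RNA-seq libraries of whole gastrocnemius, diaphragm, heart and liver. The mice were 5-week-old males bred on a pure 129Pas background. Mtm1-/y mice lack myotubularin, an X-linked phosphoinositide phosphatase, in the whole body, and their WT littermates carry the normal gene. No further allele or treatment was labelled in either genotype. There were 4 WT and 4 Mtm1-/y libraries of gastrocnemius, 4 and 3 of diaphragm, 4 and 4 of heart, and 3 and 4 of liver. Per the study's methods, the libraries of a group came from as many mice.

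IGF1 is made mainly by hepatocytes under the control of growth hormone, and also locally in muscle, where it promotes growth of the fibres. In the blood most IGF1 travels in a complex of IGFBP3 or IGFBP5 with the acid-labile subunit, and the other binding proteins hold IGF1 away from its receptor or release it at the cell surface. The bound receptor phosphorylates IRS1 and IRS2, which pass the signal to phosphoinositide 3-kinase and AKT.

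The genes lie on 8 mouse chromosomes, and the annotation of the mm10 build matched all 10. Igf1 spans chr10:87858265-87937042 on the plus strand, Igf1r chr7:67952827-68233668 plus, and Igfals chr17:24865997-24882010 plus. Irs1 lies at chr1:82233101-82291416 and Irs2 at chr8:10984681-11008458, both on the minus strand. Igfbp3 (chr11:7206086-7213923, minus) and Igfbp4 (chr11:99041244-99054392, plus) share a chromosome, and Igfbp5 lies at chr1:72857932-72874884 (minus), Igfbp6 at chr15:102144362-102149511 (plus) and Igfbp7 at chr5:77349240-77408041 (minus). Exons of Igfbp7, Irs1 and Irs2 overlap exons of an opposite-strand gene (Polr2b, Gm9747 and 9530052E02Rik). The library kit marks strand, but whether the counting used it is not given in the sources used here, so reads of these pairs may not be separable.

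The promoter windows of Igfals and Igfbp4 are shown because these were the only members that changed with genotype in gastrocnemius, and STAT5, the transcription factor downstream of the growth hormone receptor, binds motifs of the form TTCNNNGAA. RefSeq windows of 300 bases (250 before to 50 after each start, GRCm38.p6) were at hand for all 10 genes, 12 windows in all. Both Igfals windows below hold that motif, shown in capitals, and the second also holds the forkhead motif TGTTTAC. In the Igfbp4 window the capitals mark a TATAAA box. The first Igfals window is chr17:24877594-24877893, the second chr17:24877981-24878280 and the Igfbp4 window chr11:99040994-99041293, all on the plus strand and written 5′ to 3′.
Igfals, first window: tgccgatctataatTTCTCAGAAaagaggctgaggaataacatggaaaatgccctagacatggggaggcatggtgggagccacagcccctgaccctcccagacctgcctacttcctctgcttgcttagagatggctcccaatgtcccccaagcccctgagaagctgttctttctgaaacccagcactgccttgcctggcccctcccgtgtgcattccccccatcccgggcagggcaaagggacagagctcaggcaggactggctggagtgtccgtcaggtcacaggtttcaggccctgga
Igfals, second window: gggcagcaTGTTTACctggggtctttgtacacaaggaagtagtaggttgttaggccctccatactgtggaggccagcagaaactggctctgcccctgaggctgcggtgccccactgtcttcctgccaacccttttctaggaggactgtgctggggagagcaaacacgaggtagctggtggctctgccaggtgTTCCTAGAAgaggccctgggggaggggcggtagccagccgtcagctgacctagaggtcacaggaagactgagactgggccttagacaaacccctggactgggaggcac
Igfbp4: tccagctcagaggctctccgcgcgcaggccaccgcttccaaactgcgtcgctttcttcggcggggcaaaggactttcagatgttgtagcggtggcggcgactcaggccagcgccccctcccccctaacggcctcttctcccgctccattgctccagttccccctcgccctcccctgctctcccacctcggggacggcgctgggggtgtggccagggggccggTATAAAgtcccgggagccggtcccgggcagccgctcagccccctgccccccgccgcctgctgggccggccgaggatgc
With starts counted as +1, the motif in the second Igfals window runs from -58 to -50, and that in the first from -236 to -228. The third Igfals window and the windows of the other 9 members held no TTCNNNGAA, which reads the same on both strands and was present in 8.3% of all 32851 mouse windows. TGTTTAC, searched on both strands, was in no other member's window and in 3.65% of all windows. TATAAA on either strand was in the windows of 2 members and in 13.6% of all. These matches describe letters only, and no binding was measured.

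The libraries held 24873817 to 44289343 counted reads each. The knocked-out gene was checked first: Mtm1 stood at 15.9 to 26.9 CPM (counts relative to library size, scaled between libraries by the TMM method) in WT and at 3.49 to 8.19 CPM in Mtm1-/y libraries, and in each tissue all Mtm1-/y libraries lay below all WT libraries. By the edgeR quasi-likelihood test Mtm1 passed in gastrocnemius (adjusted p = 2.1e-05), heart (2.6e-05) and diaphragm (0.027). It did not pass in liver (log2 fold change -1.60, adjusted p = 0.37). Defining markers fitted the labelled tissue, with 1 exception that bears on the IGF genes. The hepatocyte mRNA Alb ranged from 251.5 to 28308 CPM over the 7 diaphragm libraries, against 111320 to 153610 CPM in liver and at most 86.5 CPM in gastrocnemius and heart. It was 15531 CPM or more in WT diaphragm replicates 1, 2 and 4 and Mtm1-/y replicate 2, and between 251.5 and 1449.6 CPM in the other 3. Because the tissues are bulk mixtures, fewer cells of a type and less RNA per cell cannot be told apart in any comparison.

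In WT mice Igf1, Igfals and Igfbp4 were highest in liver, while the receptor Igf1r, the adaptor Irs1 and the binding protein genes Igfbp5 and Igfbp6 were higher in the muscles. Igf1 measured 899.6, 853.3 and 1054 CPM in the 3 WT liver libraries, 82.1, 50.7, 55.7 and 37.7 CPM in gastrocnemius and 32.1, 19.9, 23.0 and 33.3 CPM in heart. The liver libraries lay far above those of the other tissues and did not overlap with them. In the diaphragm Igf1 measured 226.2, 139.8, 46.9 and 190.2 CPM. Igf1 was 3.97 ± 0.43 lower in gastrocnemius than in liver on the log2 scale (SE, edgeR quasi-likelihood test, adjusted p = 1e-06) and 2.14-fold higher in gastrocnemius than in heart (adjusted p = 0.021). Its adjusted p for gastrocnemius against heart rose to 0.074, 0.06 and 0.055 without WT gastrocnemius replicate 1, WT heart replicate 2 or WT heart replicate 3.

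**Figure D1:**
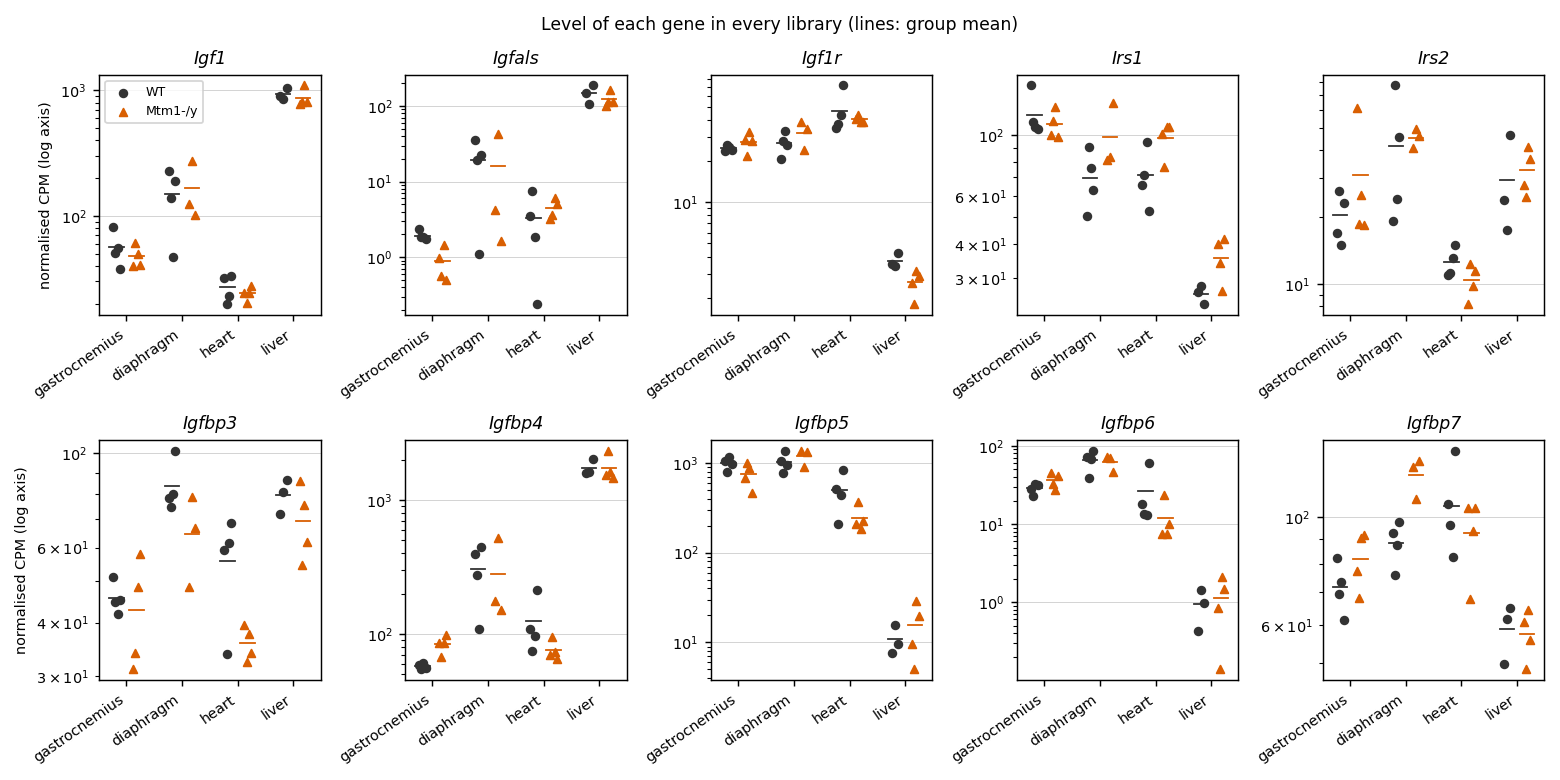
Level of each of the 10 genes in every library, as normalised CPM on a log axis, by tissue on the horizontal axis. Dark circles are WT and orange triangles Mtm1-/y libraries, and lines are group means; in gastrocnemius all Igfbp4 triangles (67.7 to 98.5 CPM) sit above the circles (54.5 to 60.9 CPM) and all Igfals triangles below them.

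Igfals, the partner that keeps IGF1 in the circulation, was also highest in liver. It measured 149.4, 105.9 and 187.1 CPM in WT liver, 3.50, 7.55, 1.87 and 0.241 CPM in heart, and 2.33, 1.84, 1.85 and 1.72 CPM in gastrocnemius. The heart libraries spread widely, and gastrocnemius and heart overlapped and were not called different (log2 difference -0.72 ± 0.85, adjusted p = 0.48). Igfals was 6.17 ± 0.97 lower in gastrocnemius than in liver (adjusted p = 3.9e-05).

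Igf1r and Irs1, which receive the signal, were lowest in liver. Igf1r measured 3.54, 3.40 and 4.26 CPM in WT liver and 34.9, 37.5, 43.6 and 71.5 CPM in heart, with gastrocnemius (23.8 to 26.3 CPM) and diaphragm (20.8 to 33.0 CPM) between them. It was higher in heart than in liver by 3.69 ± 0.25 (adjusted p = 9.5e-09), and gastrocnemius and diaphragm did not differ beyond their spread (log2 difference -0.08 ± 0.19, adjusted p = 0.75). Irs1 was highest in gastrocnemius (105.3 to 152.1 CPM) and lowest in liver (24.1 to 28.1 CPM), a log2 difference of 2.25 ± 0.22 (adjusted p = 4.2e-07). Diaphragm and heart did not differ in Irs1 beyond their spread (adjusted p = 0.93). Irs2, the second adaptor, varied less between tissues: its WT means ran from 12.6 CPM in heart to 41.5 CPM in diaphragm, and 3 of its 6 tissue pairs passed the test. Of those, gastrocnemius against diaphragm was at the threshold (adjusted p = 0.044). That p was 0.051 to 0.22 without any 1 of 8 WT libraries, and highest without WT diaphragm replicate 2, which had the most Irs2 (77.5 CPM).

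Among the binding proteins, Igfbp4 was a liver gene and Igfbp5 and Igfbp6 were nearly absent there. Igfbp4 measured 1609.9, 1617 and 2041 CPM in WT liver and 54.5 to 60.9 CPM in gastrocnemius, a log2 difference of -4.86 ± 0.45 (adjusted p = 1.9e-07). Igfbp5, which binds to bone and muscle matrix, measured 7.57, 15.8 and 9.54 CPM in liver against 1063, 802.6, 1170.2 and 965.3 CPM in gastrocnemius. No liver library came near a gastrocnemius library, and the log2 difference was 6.58 ± 0.50 (adjusted p = 2.7e-08). Igfbp6, which prefers IGF2, measured 0.422, 1.43 and 0.968 CPM in liver and 22.5 to 32.3 CPM in gastrocnemius (log2 difference 5.03 ± 0.65, adjusted p = 5.6e-06). Igfbp3 and Igfbp7 were the most even: Igfbp3 group means ran from 45.7 to 83.6 CPM and those of Igfbp7, a protein of vessel walls that binds IGF1 weakly, from 58.8 to 105.5 CPM. Igfbp7 was higher in heart than in liver by 0.88 ± 0.17 (adjusted p = 0.00024) and did not pass the test between gastrocnemius and liver (adjusted p = 0.057).

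Per kilobase of exon, the scale on which genes can be set beside each other, Igfbp5 was the most abundant member in WT gastrocnemius (166.6 CPM per kb), diaphragm (172.3) and Igfbp7 in heart (87.2 CPM per kb, with Igfbp5 at 82.9). In liver Igfbp4 led at 397.6 CPM per kb, ahead of Igf1 at 94.5, Igfbp7 at 48.7 and Igfals at 46.6 CPM per kb. Igf1r was the lowest member in liver (0.222 CPM per kb), while Igfals was lowest in gastrocnemius (0.610) and heart (1.04).

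**Figure D2:**
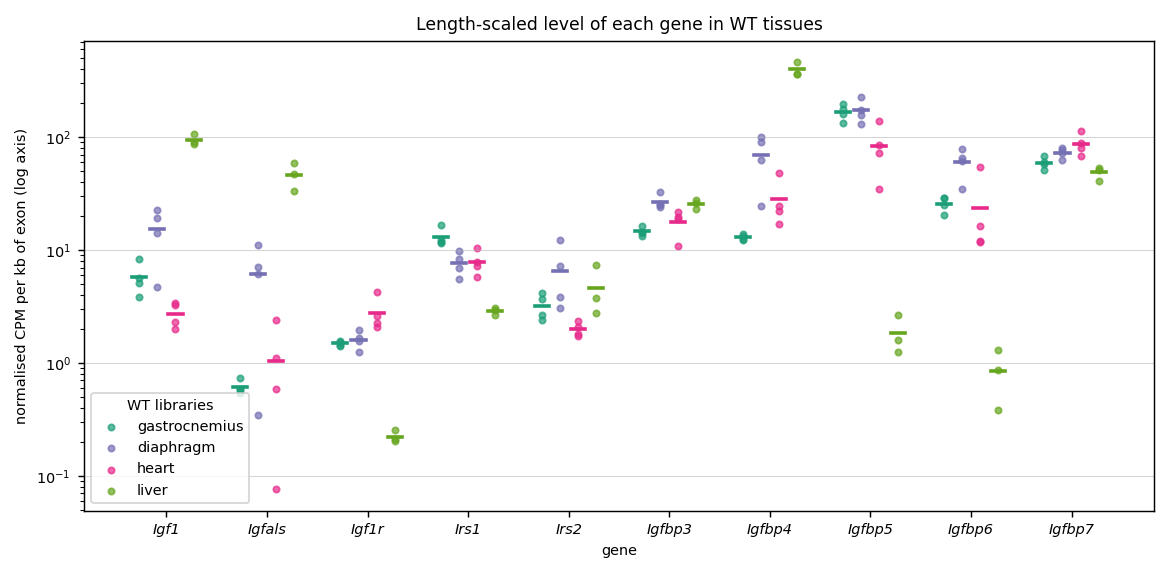
Level of each gene in WT libraries of the 4 tissues as normalised CPM per kb of exon on a log axis, with 1 point per library and a line at the mean. Liver points lie highest for Igf1, Igfals and Igfbp4 and lowest for Igf1r, Irs1, Igfbp5 and Igfbp6.

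Counted over the 10 genes, 7 differed between WT gastrocnemius and diaphragm (54.4% of all genes tested differed), 6 between gastrocnemius and heart (61.3%), 8 between gastrocnemius and liver (79.5%), 8 between diaphragm and heart (51.7%), 8 between diaphragm and liver (76.1%) and 10 between heart and liver (76.4%). The comparisons share WT libraries. Both counts of diaphragm against another muscle fell when the libraries with much Alb were left out, a step that also left a single WT diaphragm library: with WT diaphragm replicate 3 alone, the 1 WT library low in Alb, 1 of 10 members was called against gastrocnemius (Igfbp3, log2 difference -0.82, adjusted p = 0.048) and 0 of 10 against heart. In that fit the direction turned for Igf1 (from -1.39 to 0.27, adjusted p = 0.67) and Igfals (from -3.31 to 0.82, adjusted p = 0.65) between gastrocnemius and diaphragm, while 8 of 10 members still differed between diaphragm and liver. Some lost calls kept their size, as for Igfbp6 against gastrocnemius (-1.27, from -1.19) and Igfbp5 between diaphragm and heart (1.46, from 1.06), so the fall in Alb and the fall in sample number cannot be told apart there.

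In the gastrocnemius, the question was whether loss of myotubularin changes IGF signalling genes in a severely affected limb muscle. Igfbp4 was higher and Igfals lower in Mtm1-/y mice, and the ligand, the receptor, both adaptors and the other 4 binding proteins did not pass the test. Igfbp4, a binding protein that restrains IGF1 until the protease PAPP-A cleaves it, measured 58.2, 54.5, 60.9 and 55.2 CPM in WT and 86.2, 67.7, 86.1 and 98.5 CPM in Mtm1-/y libraries. Each Mtm1-/y library lay above each WT library, with a log2 fold change of 0.58 ± 0.11 (1.49-fold, edgeR quasi-likelihood test, adjusted p = 0.0034). Igfals measured 2.33, 1.84, 1.85 and 1.72 CPM in WT and 0.987, 0.558, 1.47 and 0.494 CPM in Mtm1-/y libraries, from 17 to 77 counts each. The Mtm1-/y libraries lay below the WT libraries, with a log2 fold change of -1.12 ± 0.33 (adjusted p = 0.03). On CPM by library total alone, without TMM scaling, Mtm1-/y replicate 3 (1.57 CPM) fell within the WT range (1.33 to 2.00 CPM).

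These 2 calls of 10 stand beside 29% of all 15456 genes tested in this muscle, 14.1% higher and 14.9% lower, so that the share of members called was below that of all genes. The median log2 fold change of the members was 0.04 and that of all genes tested 0.02. With a further limit of an absolute log2 fold change over 1, passed by 6.63% of all genes, Igfals remained. By DESeq2, which called 25.7% of genes, the same genes passed (adjusted p = 1.5e-05 for Igfbp4 and 0.009 for Igfals). Igfals lost its call without any 1 of WT replicates 1, 2 and 3 and Mtm1-/y replicates 1, 2 and 4 (adjusted p = 0.053 to 0.076), and both genes lost theirs when all 30 libraries shared 1 estimate of spread (adjusted p = 0.32 for Igfbp4 and 0.45 for Igfals).

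**Figure D3:**
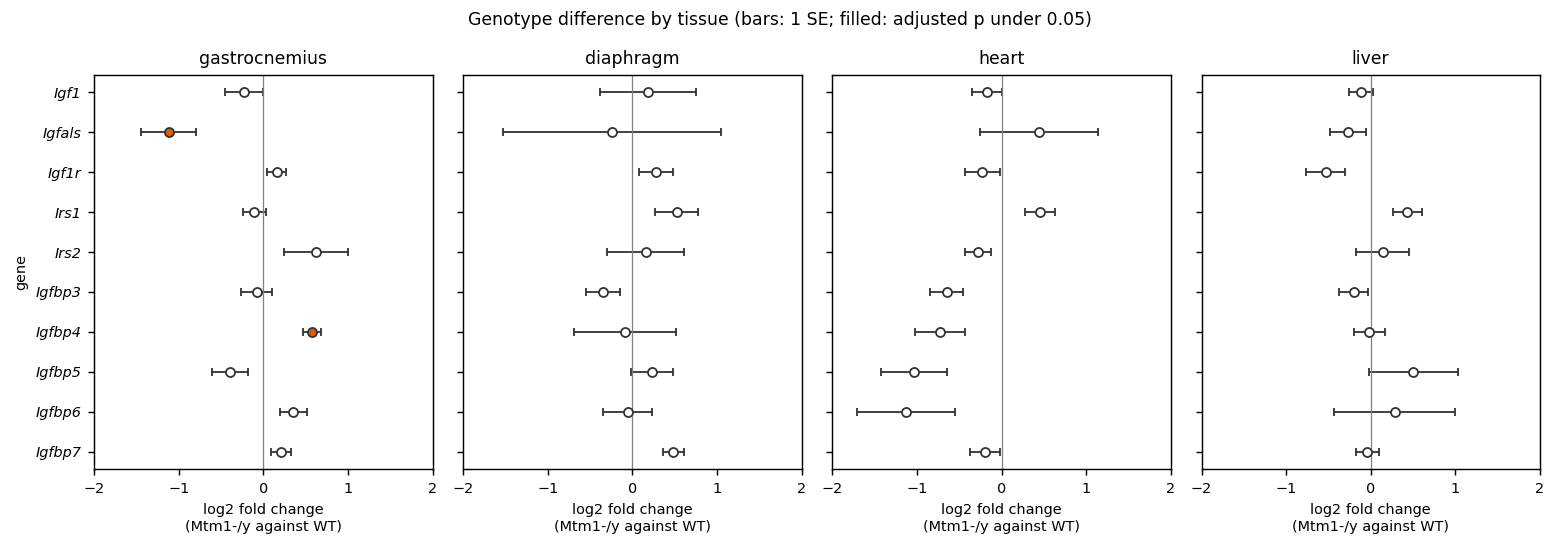
Log2 fold change of Mtm1-/y against WT for the 10 genes in each tissue, with bars of 1 SE; filled points passed an adjusted p of 0.05. Igfbp4 (0.58) and Igfals (-1.12) in gastrocnemius are the only filled points, and bars are widest for Igfals in diaphragm.

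Igf1 itself measured 82.1, 50.7, 55.7 and 37.7 CPM in WT and 39.5, 60.9, 50.1 and 40.8 CPM in Mtm1-/y gastrocnemius. The groups overlapped, with a log2 fold change of -0.23 ± 0.22 (adjusted p = 0.46). Igf1r was 0.16 ± 0.11 (adjusted p = 0.31) and Irs1 -0.11 ± 0.13 (adjusted p = 0.58). Irs2 measured 17.0, 26.2, 15.1 and 23.2 CPM in WT and 61.4, 18.6, 25.1 and 18.5 CPM in Mtm1-/y libraries. Mtm1-/y replicate 1 stood far above the rest, and the log2 fold change of 0.62 ± 0.37 (adjusted p = 0.24) was 0.05 without it and 1.12 with fibroblast markers in the fit, where it passed (adjusted p = 0.037). Igfbp5 measured 1063, 802.6, 1170.2 and 965.3 CPM in WT and 684.4, 988.2, 875.0 and 463.0 CPM in Mtm1-/y libraries, a log2 fold change of -0.40 ± 0.21 (adjusted p = 0.19) with overlapping groups. Igfbp6 was at 0.35 ± 0.16 (adjusted p = 0.13), Igfbp7 at 0.20 ± 0.12 (adjusted p = 0.23) and Igfbp3 at -0.08 ± 0.18 (adjusted p = 0.77). Igf1r and Igfbp6 passed the test when Mtm1-/y replicate 2 or replicate 3, respectively, was left out (adjusted p = 0.038 and 0.039).

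Marker levels of several cell types moved with genotype in gastrocnemius, where a change in cell mix and a change in RNA per cell cannot be told apart. The summed level of 10 skeletal fibre markers was 228400 to 272630 CPM in WT and 146050 to 160980 CPM in Mtm1-/y libraries, with 8 markers lower and 2 higher. That of 7 macrophage markers was 40.1 to 71.6 and 94.7 to 116.9 CPM, with 6 higher. Of 7 white adipocyte markers 6 were higher (summed level 220.1 to 340.8 and 348.1 to 521.0 CPM), and of 7 fibroblast markers 4 were higher (3229 to 8734 and 3748 to 10758 CPM, overlapping). None of these markers was at 0 in all libraries of a group. With the mean marker level added to the fit, the log2 fold change of Igfbp4 was 0.44 with adipocyte markers (adjusted p = 0.22), 0.34 with macrophage markers (adjusted p = 0.76) and 0.46 with fibroblast markers (adjusted p = 0.027). The adipocyte and macrophage sums did not overlap between genotypes, so these fits can hardly separate marker level from genotype. A call lost in them therefore decides nothing, and how many of all genes kept their call was not counted. Hepatocyte markers summed to 61.1 to 133.9 CPM in WT and 27.1 to 111.3 CPM in Mtm1-/y gastrocnemius, and with them in the fit Igfals was at -0.56 (adjusted p = 0.18). It was at -2.18 with macrophage markers (adjusted p = 0.45), -1.32 with adipocyte markers (adjusted p = 0.24) and -0.91 with fibroblast markers (adjusted p = 0.13). Igfals was 3.48 to 8.67% of Alb in WT and 3.98 to 19.1% in Mtm1-/y gastrocnemius, against 0.067 to 0.137% in liver.

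In the diaphragm no member passed the edgeR test, where 0.0119% of all genes did. Igf1, Igfbp4 and Igfals followed the Alb level of the library more than the genotype. Igf1 measured 226.2, 139.8, 46.9 and 190.2 CPM in WT and 124.2, 276.3 and 101.2 CPM in Mtm1-/y replicates 1, 2 and 4. Its lowest value came from the WT library with the least Alb and its highest from the Mtm1-/y library with the most, and the log2 fold change was 0.18 ± 0.57 (adjusted p = 0.97). Igfals measured 35.2, 19.3, 1.09 and 22.3 CPM in WT and 4.27, 42.5 and 1.65 CPM in Mtm1-/y libraries, in the same order as Alb. Igfbp4 measured 397.0, 274.9, 108.8 and 444.2 CPM in WT and 175.9, 519.2 and 150.3 CPM in Mtm1-/y libraries.

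**Figure D4:**
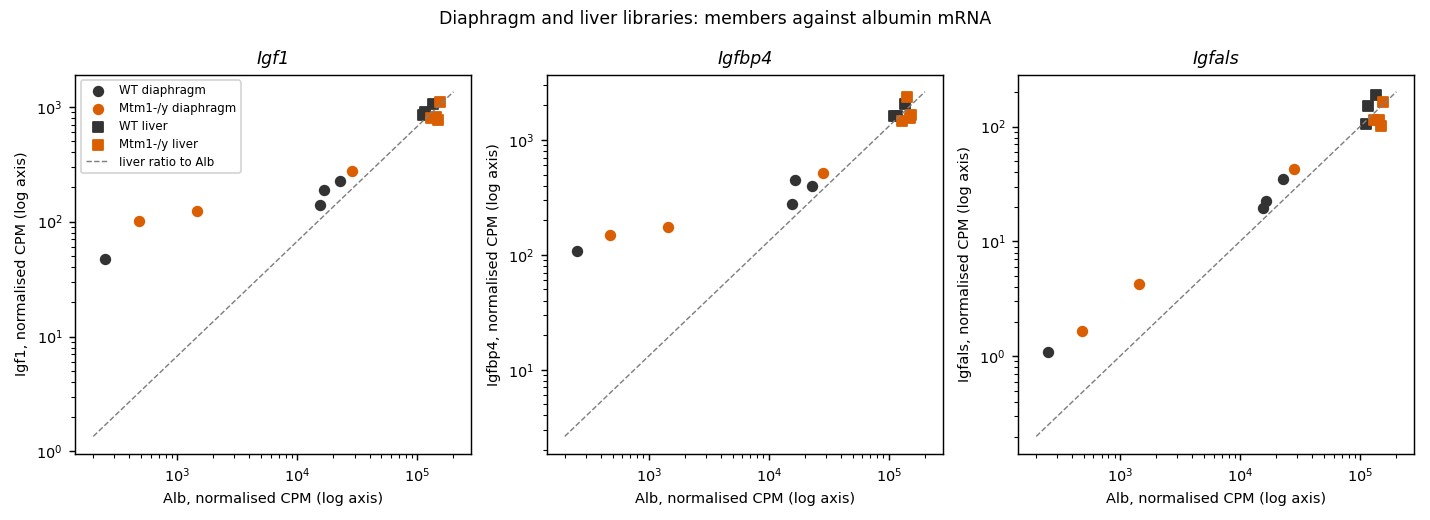
Igf1, Igfbp4 and Igfals against Alb in diaphragm (circles) and liver (squares) libraries, as normalised CPM on log axes; dark is WT and orange Mtm1-/y, and the dashed line is the mean liver ratio of the gene to Alb. The 4 diaphragm libraries with Alb of 15531 CPM or more lie just above the line, and the 3 with less Alb lie further above it.

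At the mean liver ratio, Alb would carry with it 58.8 to 75.0% of the Igf1 level in the 4 libraries rich in Alb and 3.21 to 7.89% in the other 3. The Igf1 level left after taking that amount off was 72.3, 34.9, 45.2 and 78.4 CPM in WT and 114.4, 85.1 and 97.9 CPM in Mtm1-/y libraries. On that scale the Mtm1-/y libraries lay above the WT libraries, but not at the highest liver ratio (WT 49.9, 19.6, 44.9 and 62.1 CPM, Mtm1-/y 112.9, 57.2 and 97.5 CPM) or at the lowest (WT 108.6, 59.6, 45.6 and 104.7 CPM, Mtm1-/y 116.7, 130.2 and 98.7 CPM). With hepatocyte markers in the fit, the Igf1 log2 fold change was 0.56 (adjusted p = 0.22). Among the 3 libraries low in Alb, Igf1 was 46.9 CPM in the WT library and 124.2 and 101.2 CPM in the Mtm1-/y libraries, a log2 fold change of 1.26 (adjusted p = 0.56, with a single WT library assumed to vary like the others).

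Igfbp7 measured 92.5, 75.9, 87.5 and 97.5 CPM in WT and 126.4, 108.9 and 130.2 CPM in Mtm1-/y diaphragm, a log2 fold change of 0.48 ± 0.13. Its adjusted p was 0.29 by edgeR and 0.039 by DESeq2, which called 2.37% of all genes in this muscle. All Mtm1-/y values of Igfbp7 lay above WT, but how many of all genes separated in this way was not counted. At the highest liver ratio Alb would account for at most 15.7 CPM of Igfbp7 in any diaphragm library, that of Mtm1-/y replicate 2. Irs1 measured 50.8, 90.2, 75.7 and 63.1 CPM in WT and 80.9, 83.2 and 131.7 CPM in Mtm1-/y libraries (log2 fold change 0.52 ± 0.25, adjusted p = 0.53). Fibroblast markers summed to 1968 to 4092 CPM in WT and 4208 to 8583 CPM in Mtm1-/y diaphragm, and the part of cell mix in the Igfbp7 difference was not tested. The remaining members had log2 fold changes between -0.35 (Igfbp3) and 0.27 (Igf1r), with adjusted p of 0.62 or more. At an unadjusted p under 0.05, 1 member (Igfbp7) and 1806 of 16796 genes passed.

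In the heart 8 of 10 members had lower means in Mtm1-/y mice, and none passed the edgeR test, as 0.00656% of all genes did, or DESeq2, which called 0.453%. Each of these 8 had its highest WT value in replicate 4, so their shared direction leans on 1 library. The median log2 fold change of all genes tested was -0.0016, and the share below 0 was not counted. At an unadjusted p under 0.05, 4 members and 1353 of 15238 genes passed: Irs1, Igfbp3, Igfbp4 and Igfbp5. Igfbp5 measured 512.8, 206.4, 436.0 and 836.9 CPM in WT and 207.7, 366.5, 183.8 and 222.8 CPM in Mtm1-/y libraries. WT replicates 1, 3 and 4 were above all Mtm1-/y libraries, and WT replicate 2 lay among them. The log2 fold change was -1.03 ± 0.39 (adjusted p = 0.55). Igfbp3, the main carrier of IGF1 in blood, measured 59.1, 33.8, 61.4 and 68.5 CPM in WT and 39.4, 32.2, 37.6 and 33.9 CPM in Mtm1-/y hearts, a log2 fold change of -0.65 ± 0.20 (adjusted p = 0.55). Without WT replicate 2 it was -0.83 and passed the test (adjusted p = 0.037).

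WT heart replicate 4 stood apart in several members. It had the highest Igfbp4 (214.4 CPM, against 75.0 to 109.0 CPM in the other WT hearts), Igfbp6 (60.2 against 13.2 to 18.3 CPM) and Igf1r (71.5 against 34.9 to 43.6 CPM), and the lowest Igfals (0.241 against 1.87 to 7.55 CPM) and Irs1 (52.8 against 65.7 to 94.6 CPM). Without it the log2 fold changes were nearer 0: Igfbp4 went from -0.73 to -0.32, Igfbp5 from -1.03 to -0.66 and Igfbp6 from -1.13 to -0.31, with adjusted p of 0.87 to 0.91. The summed fibroblast markers were 2540, 1724, 2706 and 4041 CPM in WT and 2081, 2038.5, 1789 and 2019.9 CPM in Mtm1-/y hearts, highest in the same WT library and lowest in WT replicate 2. Cardiomyocyte markers also summed highest in WT replicate 4 (49471 CPM, against 27548 to 33026 CPM in the other WT hearts). Its endothelial sum (805.3 CPM) lay within that of the others (742.4 to 875.6 CPM). What set this library apart was not tested. With fibroblast markers in the fit, the log2 fold changes of Igfbp3, Igfbp4, Igfbp5 and Igfbp6 were -0.26, -0.09, -0.18 and -0.11. With white adipocyte markers in the fit they were -0.11, 0.53, 0.59 and 1.31 (adjusted p = 1 for each), so that the direction of the last 3 turned. Those markers had a median log2 fold change of -2.68 in heart, where 0 of 7 passed and their summed level overlapped (WT 418.0 to 540.8 CPM, Mtm1-/y 407.0 to 511.2 CPM). Upk3b, a gene of mesothelial cells that line the heart and other organs, measured 58.5, 23.8, 43.4 and 160.0 CPM in WT and 25.3, 68.9, 13.0 and 35.1 CPM in Mtm1-/y hearts. It was highest in the libraries with the most Igfbp6 in each genotype, WT replicate 4 and Mtm1-/y replicate 2 (23.4 CPM of Igfbp6, against 7.43 to 10.0 CPM in the other Mtm1-/y hearts). Upk3b was picked for its similarity to Igfbp6 over these same libraries (r = 0.85), so this match is no separate evidence.

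Irs1 and Igfals had higher means in Mtm1-/y hearts. Irs1 was at 65.7, 71.7, 94.6 and 52.8 CPM in WT and 101.4, 76.2, 106.8 and 107.4 CPM in Mtm1-/y libraries (log2 fold change 0.45 ± 0.18, unadjusted p = 0.0306, adjusted p = 0.55). Igf1 was low in both genotypes, at 19.9 to 33.3 CPM in WT and 20.3 to 27.5 CPM in Mtm1-/y hearts (log2 fold change -0.18 ± 0.18, adjusted p = 0.68). Igfals, Igf1r, Irs2 and Igfbp7 overlapped between genotypes, with adjusted p of 0.55 to 0.8.

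In the liver, the main source of circulating IGF1 and its acid-labile subunit, no member passed and no gene of 14305 did (0% by edgeR, 0.163% by DESeq2). The knocked-out gene Mtm1 itself did not pass there (edgeR adjusted p = 0.37), so the lack of calls in liver does not show a lack of change. At an unadjusted p under 0.05, 2 members and 606 genes passed. Igf1 measured 899.6, 853.3 and 1054 CPM in WT and 773.4, 808.0, 1095 and 804.1 CPM in Mtm1-/y livers. The groups overlapped, with a log2 fold change of -0.11 ± 0.14 (adjusted p = 0.97). Igfals measured 149.4, 105.9 and 187.1 CPM in WT and 100.4, 114.0, 164.0 and 113.9 CPM in Mtm1-/y livers (log2 fold change -0.27 ± 0.21, adjusted p = 0.97). Igfbp4 was at -0.01 ± 0.18 and Igfbp3 at -0.20 ± 0.17.

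Igf1r measured 3.54, 3.40 and 4.26 CPM in WT and 2.56, 1.80, 3.14 and 2.86 CPM in Mtm1-/y livers. Its log2 fold change was -0.53 ± 0.23 (unadjusted p = 0.0485, adjusted p = 0.97). All Mtm1-/y values lay below WT, but how many of all genes separated in this way was not counted. Irs1 measured 26.6, 28.1 and 24.1 CPM in WT and 39.97, 34.1, 26.8 and 41.6 CPM in Mtm1-/y livers, so that 3 of the 4 Mtm1-/y libraries exceeded all WT libraries (log2 fold change 0.43 ± 0.17, unadjusted p = 0.0306, adjusted p = 0.97).

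Whether the effect of genotype differed between the gastrocnemius and another tissue was tested directly, as the fold change in that tissue minus the fold change in gastrocnemius. These 3 comparisons share the gastrocnemius libraries. Igfbp4 was the only member that passed, for heart minus gastrocnemius: it was higher in Mtm1-/y gastrocnemius (0.58) and at -0.73 in heart, and the difference was -1.29 ± 0.34 (adjusted p = 0.016). Of all genes, 19.8% passed in that comparison, so that 1 of 10 members is no excess. The difference was -0.89 without WT heart replicate 4 (adjusted p = 0.0074) and kept an adjusted p under 0.05 without any other library, and lost its call when all 30 libraries shared 1 estimate of spread (adjusted p = 0.11). No member passed for diaphragm minus gastrocnemius (0.28% of all genes) or liver minus gastrocnemius (6.34%), where 0 and 4 members had an unadjusted p under 0.05. Of all genes, 2249 of 17509 and 3828 of 17179 had an unadjusted p under 0.05 there. The 4 members were Igf1r (-0.65 ± 0.22, adjusted p = 0.092), Irs1 (0.57 ± 0.23, adjusted p = 0.15), Igfbp4 (-0.56 ± 0.24, adjusted p = 0.18) and Igfals (0.88 ± 0.39, adjusted p = 0.2).

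In the rest of the pathway, 42 further genes in 5 lists were measured, and the gastrocnemius held all those that passed. There, 17 of 40 tested genes passed, 8 higher and 9 lower, where 29% of all genes did. Of 6 listed genes for other ligands, receptors and binding proteins, 4 were tested and all 4 passed. Igfbp2, a binding protein of fetal and liver tissue, measured 0.514, 0.160, 0.487 and 0.280 CPM in WT and 1.43, 1.87, 1.29 and 1.72 CPM in Mtm1-/y gastrocnemius, from 4 to 59 counts. Every Mtm1-/y library lay above the WT libraries (log2 fold change 2.10 ± 0.33, adjusted p = 0.0014). At such low WT counts Igfbp2 may have passed the count filter only through the Mtm1-/y libraries, so its separation and p are not firm evidence. Igf2, the fetal ligand, rose by 0.87 ± 0.29 with overlapping groups (adjusted p = 0.046), and its clearance receptor Igf2r by 0.29 ± 0.07 (adjusted p = 0.015). Insr, the insulin receptor, fell by 0.40 ± 0.08 (adjusted p = 0.0051).

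Of the 6 growth hormone genes 3 were lower, 1 was higher and 2 did not pass, where 29% of all genes passed. Ghr, the growth hormone receptor, measured 183.4, 186.8, 197.8 and 191.9 CPM in WT and 119.3, 119.1, 119.3 and 112.1 CPM in Mtm1-/y gastrocnemius. The groups were tight and far apart, and Ghr fell by 0.68 ± 0.06 (adjusted p = 9.5e-05). Its kinase Jak2 fell by 1.04 ± 0.11 (adjusted p = 0.00023) and the transcription factor Stat5b by 0.86 ± 0.08 (adjusted p = 0.00019), while Stat5a rose by 0.61 ± 0.11 (adjusted p = 0.0025). Of 4 genes for IGFBP proteases and their stanniocalcin inhibitors 1 passed: the protease gene Pappa2, which measured 0.105 to 0.454 CPM in WT and 0.510 to 1.05 CPM in Mtm1-/y libraries (log2 fold change 1.87 ± 0.44, adjusted p = 0.011). Pappa2 was near the floor in WT and may have passed the count filter only through the Mtm1-/y libraries, so this call is not firm evidence.

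**Figure D5:**
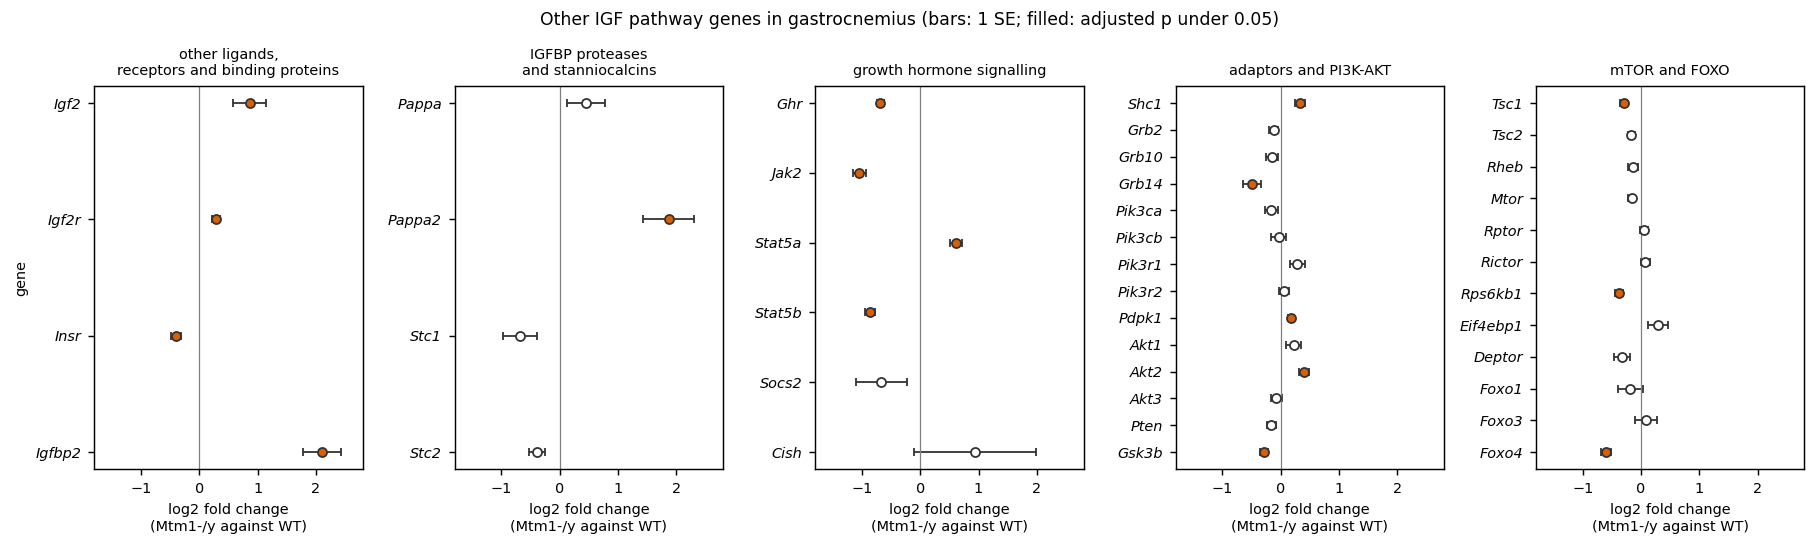
Log2 fold change of Mtm1-/y against WT gastrocnemius for the tested genes of the 5 further lists, with bars of 1 SE; filled points passed an adjusted p of 0.05. Ghr, Jak2 and Stat5b lie at -0.68 to -1.04, and Igfbp2 (2.10) and Pappa2 (1.87), both near the floor in WT, lie farthest to the right.

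Downstream of the receptor, 3 of 14 adaptor and PI3K-AKT genes were higher and 2 lower, where 14.1% of all genes tested were higher and 14.9% lower. Akt2, the main insulin-responsive AKT of muscle, rose by 0.40 ± 0.08 (adjusted p = 0.0063) and the adaptor Shc1 by 0.33 ± 0.08 (adjusted p = 0.011). Gsk3b, a kinase that AKT inhibits, fell by 0.28 ± 0.07 (adjusted p = 0.011), and Grb14, an adaptor that inhibits the insulin receptor, by 0.50 ± 0.15 (adjusted p = 0.036). Of 12 mTOR and FOXO genes 3 were lower and none higher, beside the same shares of all genes. Foxo4 fell by 0.60 ± 0.09 (adjusted p = 0.0013), the S6 kinase gene Rps6kb1 by 0.37 ± 0.07 (adjusted p = 0.0031) and Tsc1, an mTOR inhibitor, by 0.30 ± 0.06 (adjusted p = 0.0036). The median log2 fold change was -0.67 over the growth hormone list, -0.05 over the adaptors and -0.16 over the mTOR and FOXO genes, against 0.02 over all genes. The fall in fibre markers and the rise in macrophage markers given above moved with these lists, and their part was not tested.

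No gene of the 5 lists passed the edgeR test in diaphragm, heart or liver. At an unadjusted p under 0.05, 7 of 41 list genes passed in diaphragm, 4 of 39 in heart and 2 of 37 in liver. Of all genes, 1806 of 16796, 1353 of 15238 and 606 of 14305 passed in those tissues. DESeq2 called 3 of the list genes in diaphragm, named here after their values were seen, and 0 in heart and liver. Its shares of all genes called were 2.37%, 0.453% and 0.163%. Pappa2 measured 0.185, 0.312, 0.195 and 0.282 CPM in WT and 4.36, 0.464 and 1.78 CPM in Mtm1-/y diaphragm, all Mtm1-/y libraries above WT (DESeq2 adjusted p = 0.00069, edgeR 0.27). At these low WT levels it may have been tested only because of the Mtm1-/y libraries. Igf2 measured 4.57, 4.39, 5.13 and 3.62 CPM in WT and 5.53, 7.82 and 9.65 CPM in Mtm1-/y diaphragm (DESeq2 adjusted p = 0.039, edgeR 0.29). Cish overlapped, at 13.1 to 24.7 CPM in WT and 21.8, 109.4 and 81.7 CPM in Mtm1-/y libraries (DESeq2 adjusted p = 0.0032, edgeR 0.29).

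Genes with the most similar pattern were sought over all 30 libraries, as the Pearson correlation of log2(CPM + 1) after the mean of each tissue was taken off, among 10993 genes averaging at least 5 CPM. These are descriptions, and the libraries share tissue dissection and depth. Igfals was nearest to the hepatocyte genes Vtn (r = 0.93), Aco1 and Shmt1, and Igf1 to Ces3b, Itih4 and Cyp2c70 (r = 0.83 for each), which are hepatocyte genes as well. Over the 23 libraries without diaphragm, Igf1 was nearest to Casp12 (r = 0.77) and Prag1, Igfals to Sema7a (r = 0.88), Vtn and Tbrg4, and Igfbp4 to Npc2 (r = 0.94), C1ra and Csrp2. Over all 30, Igfbp4 was nearest to Dap, Prdx4 and Cnpy2 (r = 0.94 for each).

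Igfbp5 was nearest to Sema3c (r = 0.88), Pkhd1l1 and Efemp1, and Igfbp6 to Smim1 (r = 0.88), Selenom and Upk3b (r = 0.85). Igf1r was nearest to Hdgfl3 (r = 0.82), Irs1 to Cul4a (r = 0.78), Irs2 to Rpl37a (r = 0.70), Igfbp3 to Zbtb16 (r = 0.77) and Igfbp7 to Atp8b2 (r = 0.76). Among the members themselves, the closest pairs were Igfbp5 with Igfbp6 (r = 0.68), Igf1 with Igfbp4 (r = 0.66) and Igf1 with Igfals (r = 0.65).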

How the data were processed

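Whole tissue from 2 genotypes (Mtm1-/y and WT) and 4 organs was profiled by stranded polyA RNA-seq. The authors trimmed reads (bcl2fastq 2.17.1.14, cutadapt 1.10), mapped the rest against mm10 (STAR 2.5.3a), and took reads with a unique, unambiguous position into the count of each Ensembl 96 gene (HTSeq 0.6.1p1, union mode). They deposited these values as raw counts in 1 table of 30 libraries. The strand setting of the counting is not given in the sources used here.

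From the counts, each tissue was fitted on its own with edgeR 4.0.16 (R 4.3.3): genes were kept by filterByExpr with a count minimum of 10, scaled by TMM and tested by the quasi-likelihood F-test, two-sided, with Benjamini-Hochberg adjustment over all genes tested. Adjusted values under 0.05 count as called. The 15 WT libraries were fitted together for tissue pairs, and differences of genotype effects came from interaction terms in fits of 2 tissues. The SE is the log2 fold change over the square root of F. Printed CPM were scaled by TMM over all 30 libraries, and CPM per kb used the summed length of merged exons (GENCODE M21, the annotation of Ensembl 96, which held all 36103 gene IDs). The steps were tested on simulated data. Counting error, SE and p-values cover these libraries only, and totals of 24873817 to 44289343 counts leave Igfals in gastrocnemius with as few as 17 counts.

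Alternatives were DESeq2 1.42.0, its size factors in edgeR, limma 3.58.1 (voom with sample weights), no filter, a fold limit, all 30 libraries in 1 fit, a replicate block, marker scores as covariates and each library left out. Covariates for fibroblast, macrophage and (in gastrocnemius) hepatocyte markers, the fit of diaphragm libraries under 2000 CPM of Alb, the Alb subtraction and the similarity search without diaphragm were added after the data were seen. The members and all gene lists were chosen with earlier results of these data known. Named genes were all 10 members, up to 4 genes per further pathway list with the smallest p among those called in gastrocnemius (the 2 most abundant where none passed), and the 3 genes most similar to each member; others are said to be chosen after their values were seen. One gene of the similarity search is not reported here. Correlations of same-numbered libraries of the 2 genotypes were positive but weak in gastrocnemius (0.008 to 0.112) and included negative values in diaphragm, heart and liver. The numbers were therefore not taken to pair the genotypes. Whether same-numbered libraries of different tissues came from the same mouse is not given in the sources used here. In WT their correlations ran from -0.115 (diaphragm and liver) to 0.327 (gastrocnemius and diaphragm). The main tests between tissues took all libraries as independent. No library was left out of the main fits, and no pair of libraries agreed within sampling noise.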

Additional observations from a re-analysis of the deposited data

Results flagged for a closer look

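In 5 of 60 sets checked, each the 4 libraries of a group for 1 member, 1 library lay far from the other 3, where chance would give about 1 in 20. Igf1 in Mtm1-/y liver replicate 3 was 1095 CPM, against 773.4 to 808.0 CPM in the other 3. Igfbp6 in WT heart replicate 4 was 60.18 CPM, against 13.2 to 18.3 CPM, and in Mtm1-/y heart replicate 2 it was 23.4 CPM, against 7.43 to 10.0 CPM. Irs1 in WT gastrocnemius replicate 1 was 152.1 CPM, against 105.3 to 111.5 CPM. Irs2 in Mtm1-/y gastrocnemius replicate 1 was 61.43 CPM, against 18.5 to 25.1 CPM.

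The effect of genotype on Igfbp4 differed between tissues by the interaction test. Heart minus gastrocnemius was -1.29 on the log2 scale (adjusted p = 0.016), and each library left out in turn gave -1.46 to -0.89 with adjusted p of 0.0042 to 0.037.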

How the results depend on the processing

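Of 2450 values recomputed for the 130 log2 differences of the members, 2270 kept their direction and their side of the threshold, 100 changed sign with no call either way, 58 lost a call, 18 gained one and 4 reversed. The 4 reversals came from using only the diaphragm libraries low in Alb, with 1 WT library: WT gastrocnemius against diaphragm became 0.27 for Igf1 and 0.82 for Igfals, and WT diaphragm against heart became -0.17 for Igfbp4 and -1.56 for Igfals. In that fit the members called fell from 7 to 1 and from 8 to 0, with fewer samples. For gastrocnemius genotype, 2 members were called, against 0 with all 30 libraries in 1 fit, 0 with adipocyte or macrophage markers as a covariate, and 1 with no filter, with the fold limit of 1 or with hepatocyte markers, and 1 to 3 with each library left out. Adipocyte and macrophage marker sums did not overlap between genotypes there, so calls lost with those covariates decide nothing. Diaphragm genotype went from 0 to 1 by DESeq2 (Igfbp7), and heart genotype from 0 to 0 to 1 with a library left out (Igfbp3 without WT replicate 2). Heart minus gastrocnemius went from 1 to 0 with all 30 libraries, to 2 by DESeq2 (Irs1 added, 0.63, adjusted p = 0.048) and to 1 to 3 with a library left out; liver minus gastrocnemius went from 0 to 0 to 1. With no filter, more genes enter the adjustment; the other causes were not tested. Fits that leave out a library assume that the rest vary alike.

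With the replicate number as a block, the counts were 2, 0, 0 and 0 for genotype in gastrocnemius, diaphragm, heart and liver, and 0, 1 and 0 for the differences from gastrocnemius. The WT pairs gave 6, 6, 8, 8, 8 and 10, so that 1 call was lost (Irs2 between gastrocnemius and diaphragm, adjusted p = 0.066). Correlations of same-numbered libraries of the 2 genotypes ran from 0.008 to 0.112 in gastrocnemius, -0.785 to 0.618 in diaphragm, -0.613 to 0.349 in heart and -0.001 to 0.42 in liver.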

Other observations

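Igfbp2, a binding protein gene outside the 10 members, was high in the same diaphragm libraries as Alb. Igfbp2 measured 64.8, 62.6, 5.53 and 79.2 CPM in WT and 10.8, 113.5 and 4.05 CPM in Mtm1-/y diaphragm. The lowest values came from the 3 libraries low in Alb in both genotypes. Ghr, also abundant in liver, measured 263.0, 220.6, 125.4 and 248.0 CPM in WT and 104.4, 217.7 and 99.7 CPM in Mtm1-/y diaphragm (log2 fold change -0.58 ± 0.37, adjusted p = 0.67). Stat5b measured 76.8, 104.8, 108.1 and 90.7 CPM in WT and 65.8, 71.8 and 56.3 CPM in Mtm1-/y diaphragm, with all Mtm1-/y libraries below WT (log2 fold change -0.53 ± 0.16, adjusted p = 0.32). Ghr and Stat5b were picked for mention after their values were seen.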
